A study of Mus musculus with 6 samples.

Results

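Olfactory receptor genes encode the odorant-binding G protein-coupled receptors of the nose. They were represented on the array by 44 probe sets, taken as every probe set whose platform annotation gave exactly 1 gene symbol beginning with Olfr and a digit, with no filter on intensity. The 44 probe sets stood for 39 genes, of 45037 probe sets and 18193 singly named genes in the table. The RefSeq annotation of GRCm38.p6 lists 1428 genes with such symbols, so 2.73% of the family was measured. Another 3 probe sets were assigned to several receptor genes at once and were left out. The arrays hybridised RNA from the olfactory epithelium of mouse pups aged 1 day, on a mixed C57Black6/J and 129SvJ background, with 3 mutant pups and 3 wild-type pups and 1 array for each pup. The labels call the first group mutant without giving the allele. The series was set up, by its title, to find targets in olfactory sensory neurons of KLF7, which is a zinc finger factor of the Krüppel-like family active in developing neurons.

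Each mature olfactory sensory neuron transcribes a single allele of a single receptor gene, so each receptor is carried by a small part of the neurons. The receptor protein in the sensory cilia couples through the G protein subunit encoded by Gnal to the adenylyl cyclase encoded by Adcy3, and the cyclic AMP made there opens a cation channel. Vertebrate receptors fall into class I, which resembles the receptors of fish and lies in a single gene cluster in the mouse, and class II, which fills many clusters. Enhancers bound by the LIM homeodomain factor Lhx2 and by Ebf factors govern receptor choice, and sites for homeodomain and Ebf proteins lie close to many receptor start sites. Many receptors are first transcribed before birth, and the number of mature neurons grows after it.

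Of the 39 genes, 11 were of class I and 26 of class II by the family number in their RefSeq synonyms, and Olfr16 and Olfr49 had no family number there. RefSeq lists 38 of them as protein coding and Olfr75-ps1 as a transcribed pseudogene. Olfr78 had 4 probe sets, Olfr66 and Olfr701 had 2 each, and the other 36 genes had 1 each. Most probe sets, 42 of 44, carried the plain suffix _at. The members lay in 14 of the 65 runs of neighbouring receptor genes that RefSeq order gives when a gap of over 1 Mb starts a new run.

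Start-site sequences from RefSeq (GRCm38.p6), each from 250 bases before to 50 bases after the annotated start, were at hand for 29 of the 39 genes, in 30 windows. Shown here are those of the 12 brightest probe sets whose RefSeq gene record exceeds 2000 bases, since a record as short as a coding region may start at the start codon rather than at a promoter. The windows at hand were those of Olfr749 and Olfr1508, which are class II receptors, and of Olfr558, a class I receptor. Records of Olfr75-ps1, Olfr78, Olfr658 and Olfr112 also exceed 2000 bases, but no start-site sequence was at hand for them. Capitals mark the homeodomain core TAATNA, searched on both strands, and each sequence is written 5′ to 3′ on the strand of its gene. The window of Olfr749 is chr14:50744275-50744574 on the minus strand, that of Olfr558 chr7:102702073-102702372 on the plus strand, and that of Olfr1508 chr14:52467412-52467711 on the minus strand.
Olfr749: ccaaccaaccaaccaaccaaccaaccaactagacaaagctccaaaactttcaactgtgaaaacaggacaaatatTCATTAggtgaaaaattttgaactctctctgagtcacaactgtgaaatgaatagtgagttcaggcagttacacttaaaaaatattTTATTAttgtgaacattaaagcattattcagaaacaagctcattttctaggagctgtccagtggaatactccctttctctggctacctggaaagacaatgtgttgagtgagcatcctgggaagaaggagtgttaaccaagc
Olfr558: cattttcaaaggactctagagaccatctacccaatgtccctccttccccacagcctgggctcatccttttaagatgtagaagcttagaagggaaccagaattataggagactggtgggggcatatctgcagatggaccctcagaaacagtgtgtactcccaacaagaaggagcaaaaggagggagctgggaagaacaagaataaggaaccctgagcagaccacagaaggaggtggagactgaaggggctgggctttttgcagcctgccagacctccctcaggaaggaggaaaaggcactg
Olfr1508: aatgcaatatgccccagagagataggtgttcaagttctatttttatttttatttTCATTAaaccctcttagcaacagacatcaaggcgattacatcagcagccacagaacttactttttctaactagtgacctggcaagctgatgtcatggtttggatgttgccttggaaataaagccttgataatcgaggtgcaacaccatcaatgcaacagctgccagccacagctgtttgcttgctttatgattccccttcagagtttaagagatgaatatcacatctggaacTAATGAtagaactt
The letters TAATNA occurred in 2 places in each of the Olfr749 and Olfr1508 windows and in none of the Olfr558 window. Over the members, 14 of 30 windows held them (46.7%), against 65.8% of 948 windows of all receptor genes and 26.5% of 32851 windows of all genes. The CACCC box, the core that Krüppel-like factors are known to bind, occurred in 10 of 30 member windows (33.3%), against 24.2% of all receptor windows and 57.5% of all windows. The Ebf core CCCNNGGG was found in 3.33%, 3.06% and 13.7% of the same 3 sets, and the GC box GGGCGG in 6.67%, 1.06% and 35.7%. Motifs were read on both strands and matches of different motifs may share letters, so a match describes the sequence only. None of the 3 printed windows held a CACCC, CCCNNGGG or GGGCGG match.

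Klf7 itself was checked first, because the title of the series names it. Its probe set 1419354_at had log2 levels of 6.85, 5.70 and 5.26 on mutant arrays 1, 2 and 3, against 9.36, 8.58 and 9.04 on wild-type arrays 1, 2 and 3. The difference, mutant minus wild type, was -3.06 (SE 0.49, limma, unadjusted p = 9.0e-04, adjusted p = 1 over all 45037 probe sets). The groups were separate, with mutant below wild type, in all 4 Klf7 probe sets, and the other 3 differed by -2.23, -2.28 and -2.15. On mutant array 3, 1419355_at and 1419356_at lay at the floor described below, so the sizes -2.23 and -2.28 depend on it. They were -2.66 and -2.71 with a floor at the 10th percentile, and -1.44 and -1.56 with an offset of 32 instead. The labels do not say where the mutation lies relative to the 4 Klf7 probe sets. The arrays of whole epithelium differed in depth and makeup before any receptor was considered. Their deposited totals ran from 10064207 to 14439788 intensity units, and both arrays numbered 3 stood apart from the other 4. The mean log2 level of 5 squamous epithelium markers was 8.26, 3.66 and 7.48 on mutant arrays 1, 2 and 3 and 4.78, 8.97 and 4.58 on the wild-type arrays. Sustentacular and gland markers averaged 10.69, 10.78 and 10.67 on mutant arrays 1, 2 and 3 and 10.83, 10.64 and 9.57 on the wild-type arrays. The median level of mature neuron genes, given further on, ran from 9.10 to 10.08.

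Receptor signal was near background on all 6 arrays. Levels are given as log2 of quantile-normalized intensity raised where needed to a floor of 3.65 (an intensity of 12.6), under which 20% of the table's values lay and no order is read. The median of the 44 probe set means was 4.20, against 5.47 over all probe sets in the table. Background was read from 54 probe sets of 39 genes known for other organs, such as milk, egg and pancreas proteins, termed silent genes here, whose median was 4.28. Their 95th percentile lay at 6.30, an intensity of 79.0, and 2 of the 44 receptor probe sets (4.55%) exceeded it, against 37.7% of all probe sets. These 2 were Olfr75-ps1, with a mean of 8.70 over the 6 arrays, and Olfr672, with a mean of 6.49. Olfr870 fell just outside, with a mean of 6.08. The list of genes from other organs is itself imperfect, since 1 probe set each of Csn3 (mean 10.32) and Prm1 (mean 8.40) was bright on every array. No receptor exceeded the brightest of them. With the looser level of 5.19, below which the lowest 40% of single-gene probe sets lie, 7 of 44 receptor probe sets (15.9%) were above, against 54.9% of all probe sets.

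**Figure D1:**
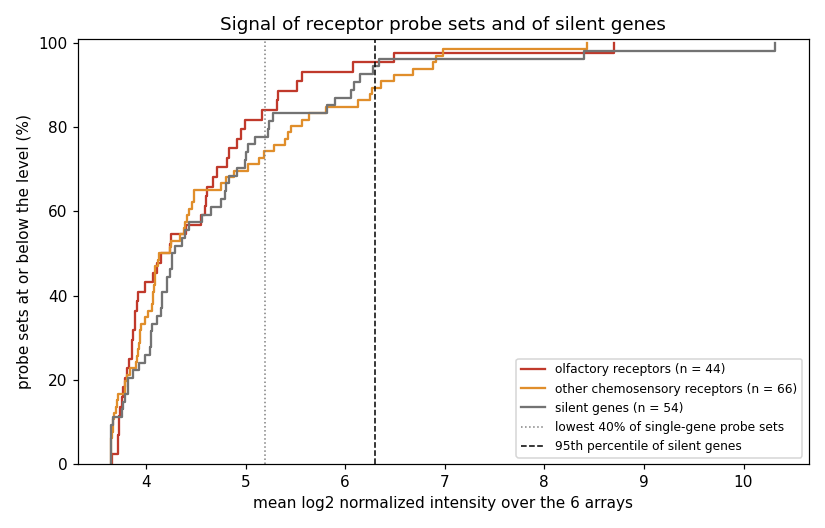
Cumulative share of probe sets (vertical axis, percent) by mean log2 normalized intensity over the 6 arrays (horizontal axis) for 44 olfactory receptor probe sets, 66 probe sets of other families with chemosensory receptors and 54 probe sets of silent genes, which are known for other organs. The 66 include 26 Ms4a probe sets, not limited to genes known as chemoreceptors. The 3 curves run close together, with medians of 4.20, 4.19 and 4.28, and 2 receptor probe sets lie right of the dashed line at 6.30.

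Of the 264 receptor values, 105 (39.8%) lay at the floor, against 20% over the table and 38.9% for the genes of other organs. No receptor probe set was at the floor on all 6 arrays, and 12 were above it on every array. The number of arrays at the floor was 1 for 4 probe sets, 2 for 6, 3 for 6, 4 for 9 and 5 for 7. Among these last 7, the array that rose above the floor was a mutant one for Olfr2 (4.06), Olfr49 (4.08), Olfr65 (4.17) and Olfr288 (3.70). It was a wild-type one for Olfr66 probe set 1422374_s_at (4.35), Olfr70 (4.28) and Olfr480 (4.12). Each of these 7 probe sets therefore had 1 measured level and no replicate of it.

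**Figure D2:**
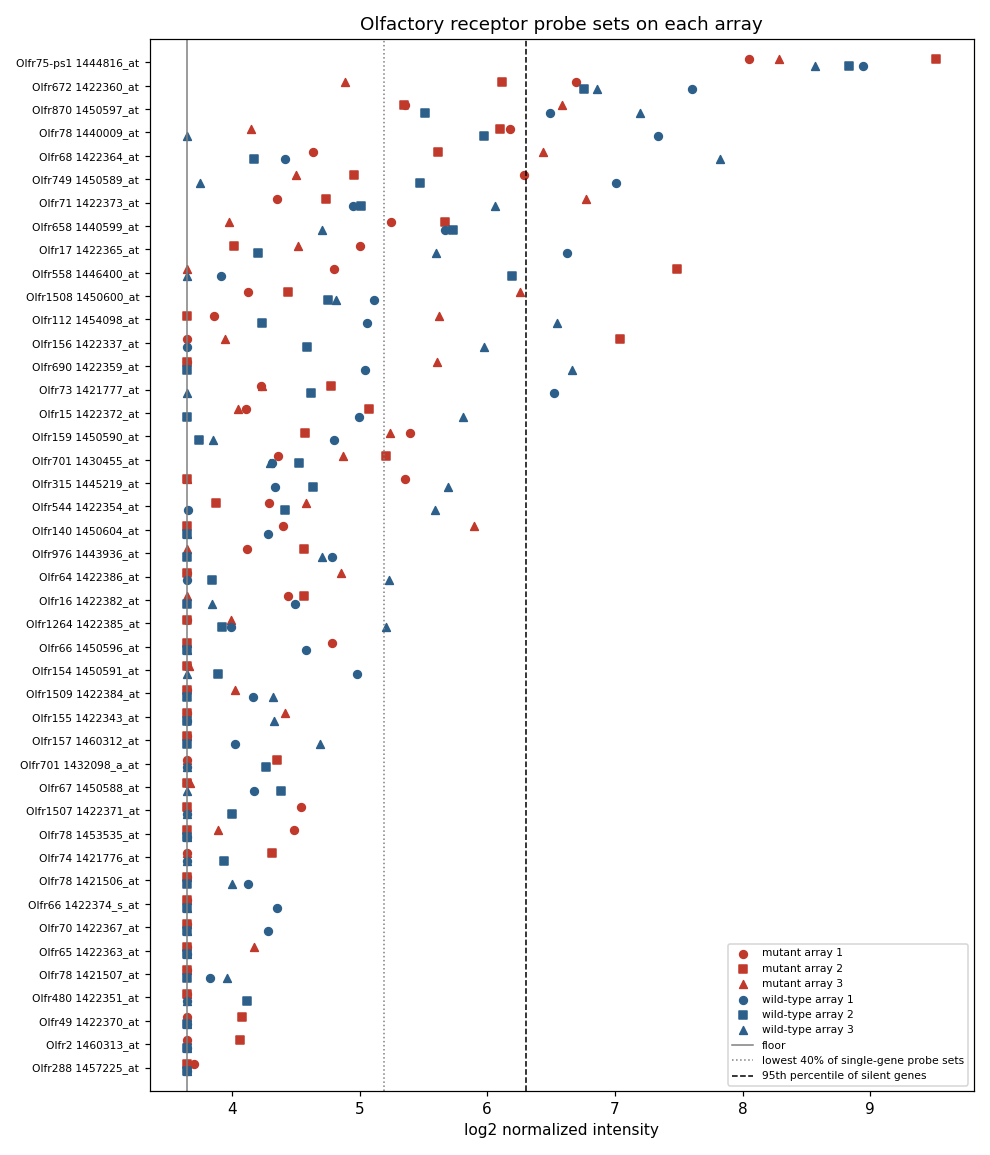
Log2 normalized intensity (horizontal axis) of each of the 44 receptor probe sets (rows, brightest mean at the top) on mutant arrays (red) and wild-type arrays (blue), with the array number as the marker shape. Most points lie at the floor of 3.65 or between it and the dotted line at 5.19. Only Olfr75-ps1 is right of the dashed background line at 6.30 on every array.

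The brightest member was Olfr75-ps1, a pseudogene of a class II receptor that RefSeq lists as transcribed. Its log2 levels were 8.05, 9.52 and 8.28 on mutant arrays 1, 2 and 3, against 8.94, 8.84 and 8.57 on wild-type arrays 1, 2 and 3. In deposited intensity these were 264, 848 and 271 in mutant and 511, 499 and 307 in wild type. Mutant array 2 was the highest of the 6 and the other mutant arrays the lowest, so the groups overlapped. The difference was -0.17 (SE 0.42, limma, unadjusted p = 0.70, adjusted p = 1).

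Olfr672, a class I receptor, was the other member above background. Its log2 levels were 6.70, 6.11 and 4.88 on mutant arrays 1, 2 and 3, against 7.60, 6.76 and 6.86 on the wild-type arrays. The deposited intensities were 91.7, 88.9 and 30.1 in mutant, against 184.7, 114.1 and 109.2 in wild type. Every mutant array lay below every wild-type array, and the nearest values were 6.70 on mutant array 1 and 6.76 on wild-type array 2. On the normalized and floored levels, the groups of no other receptor probe set were separate. In deposited intensity the groups of Olfr159 and Olfr78 (1453535_at) were also separate, higher in mutant, and those of Olfr157, lower in mutant. After normalization every wild-type array of that Olfr78 probe set and every mutant array of Olfr157 lay at the floor, where no order is read. No share of the table is given on the deposited scale, so these separations are no result about the receptors. The Olfr672 difference of -1.18 (SE 0.61), which is 2.26-fold lower, had an unadjusted p of 0.10 and an adjusted p of 1 with limma. The exact two-sided permutation p was 0.1, the smallest that 3 arrays against 3 can give.

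Of the class II receptors near the background level, Olfr870 had log2 levels of 5.36, 5.35 and 6.58 in mutant, against 6.49, 5.52 and 7.19 in wild type. The mutant array was the lower one at each number, and the difference was -0.64 (SE 0.68, limma, unadjusted p = 0.39). Olfr749 had 6.29, 4.95 and 4.50 in mutant, against 7.01, 5.47 and 3.75 in wild type. In both groups its levels were highest on array 1 and lowest on array 3, and the difference of -0.16 (SE 1.03) was far within that spread. Olfr71, a neighbour of the OR37 receptors, had 4.35, 4.73 and 6.77 in mutant, against 4.95, 5.01 and 6.06 in wild type. Here array 3 was the highest of both groups, and the difference was -0.06 (SE 0.85). Olfr112 was likewise highest on both arrays numbered 3, with 3.86, 3.65 and 5.63 in mutant, against 5.06, 4.24 and 6.55 in wild type. Its difference was -0.90 (SE 0.85). Mutant array 2 of Olfr112 lay at the floor, so this size depends on the floor. It was -1.34 with a floor at the 10th percentile and -0.53 with an offset of 32 instead.

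The class I run held 11 member genes with 15 probe sets, of 158 receptor genes that RefSeq places there. Olfr78, known as a receptor for short-chain fatty acids that is also used outside the nose, had 4 probe sets that differed from one another. Probe set 1440009_at gave 6.18, 6.10 and 4.15 in mutant, against 7.34, 5.97 and 3.65 in wild type, a difference of -0.18 (SE 1.17). The other 3 were each at the floor on 4 arrays, and in each of them 1 group was wholly at the floor. Probe set 1453535_at was above it at 4.48 and 3.89 on mutant arrays 1 and 3. On wild-type arrays 1 and 3, probe set 1421506_at was at 4.12 and 4.0 and 1421507_at at 3.83 and 3.96. Which of the 4 measures the transcript cannot be read from these data.

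Olfr558, a class I receptor related to Olfr78 that also responds to short fatty acids, had 4.8, 7.48 and 3.65 in mutant, against 3.91, 6.20 and 3.65 in wild type. Both arrays numbered 2 were the highest and both numbered 3 lay at the floor, and the difference was 0.73 (SE 1.23). Olfr68, one of the receptors beside the beta-globin genes, had 4.64, 5.62 and 6.44 in mutant, against 4.42, 4.18 and 7.83 in wild type, a difference of 0.09 (SE 1.19). Of the probe sets left out above, 2 were shared by Olfr68 and its relative Olfr69. Olfr658 had 5.25, 5.67 and 3.98 in mutant, against 5.67, 5.73 and 4.70 in wild type. Its mutant array was the lower one at each number, with a difference of -0.40 (SE 0.69). Olfr544, a receptor known to respond to azelaic acid, had 4.29, 3.88 and 4.58 in mutant, against 3.66, 4.41 and 5.59 in wild type, and a difference of -0.31 (SE 0.54).

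Receptors much used in studies of odour coding and axon targeting were mostly dim. Of 11 such genes listed for naming, 7 had a probe set of their own. Olfr17, the P2 receptor of axon targeting work, had 5.0, 4.02 and 4.52 in mutant, against 6.63, 4.20 and 5.60 in wild type. The mutant array was the lower one at each number and the groups overlapped, with a difference of -0.97 (SE 0.76, limma, unadjusted p = 0.25). Olfr73, the eugenol receptor mOR-EG, had 4.23, 4.78 and 4.23 in mutant, against 6.52, 4.62 and 3.65 in wild type. Wild-type array 1 alone stood above 5, and the difference was -0.52 (SE 0.78). Olfr16, known as MOR23 and as a receptor for lyral that sperm also carry, had 4.44, 4.57 and 3.65 in mutant, against 4.50, 3.65 and 3.85 in wild type. The difference was 0.22 (SE 0.34). Olfr2, the octanal receptor I7, was above the floor on mutant array 2 alone, as given above.

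Olfr1507, known as MOR28 and controlled by the H enhancer, was above the floor on 2 arrays, at 4.54 on mutant array 1 and 4.0 on wild-type array 2. Its neighbour Olfr1508, also under that enhancer, was brighter against the floor, with 4.12, 4.44 and 6.26 in mutant, against 5.11, 4.75 and 4.82 in wild type. Mutant arrays 1 and 2 lay below all wild-type arrays and mutant array 3 above them, and the difference was 0.04 (SE 0.69). Among the OR37 receptors, which mark a central patch of the epithelium, Olfr159 had the most positive difference of all 44 probe sets. Its levels were 5.40, 4.57 and 5.24 in mutant, against 4.8, 3.74 and 3.85 in wild type. The mutant array was the higher one at each number, by 0.60, 0.83 and 1.39, yet mutant array 2 lay below wild-type array 1. The difference of 0.94 (SE 0.45) had an unadjusted p of 0.085 and an adjusted p of 1 with limma. Its relative Olfr156 reached 7.04 on mutant array 2 and 5.98 on wild-type array 3 and lay at the floor on both arrays numbered 1.

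With limma fitted to all 45037 probe sets, 0 of the 44 receptor probe sets passed an adjusted p of 0.05, and the same held for the whole table (0%). At an unadjusted p under 0.05 there were again 0 of 44, where the table had 482, or 1.07% (0.591% lower and 0.48% higher). The smallest receptor p was 0.081, for Olfr67, a class I gene near beta-globin, whose difference was -0.41 with mutant levels of 3.65, 3.65 and 3.68 at or beside the floor, against 4.17, 4.39 and 3.65 in wild type. Fully separate groups occurred in 1 receptor probe set on the lower side (2.27%) and 0 on the higher side, where the table had 1.51% lower and 1.2% higher, 2.7% in all. Shares this near those of the table are no result about the receptors. Labels do not say what arrays of the same number share, but deviations from the group means correlated within each number (0.51, 0.41 and 0.59 over all probe sets). A fit blocked by replicate number also called 0 receptors. In that fit 776 probe sets of the table, or 1.72%, had an unadjusted p under 0.05. Among the receptors 2 did, against 0 without the block. They were Olfr159, with a difference of 0.94 (limma, unadjusted p = 0.032, adjusted p = 1), and Olfr112, with a difference of -0.90 (unadjusted p = 0.045, adjusted p = 1).

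By direction, 26 of 44 probe sets had a lower mean in the mutant (59.1%) and 18 a higher one, where the table had 50.6% lower and 47.3% higher. The median difference over the 44 was -0.17, against -0.01 over the table, and single differences ran from -1.18 to 0.94. In class I, 10 of 15 probe sets were lower, with a median of -0.19. In class II, 16 of 27 were lower, with a median of -0.16, and both probe sets without a family number were higher. Of the 7 probe sets above the looser level of 5.19, 6 were lower and 1 higher, with a median of -0.17. Over all probe sets of the table above that level, 52.4% were lower and the median was -0.02. All probe sets on an array share its RNA, so these counts are not counts of independent observations.

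**Figure D3:**
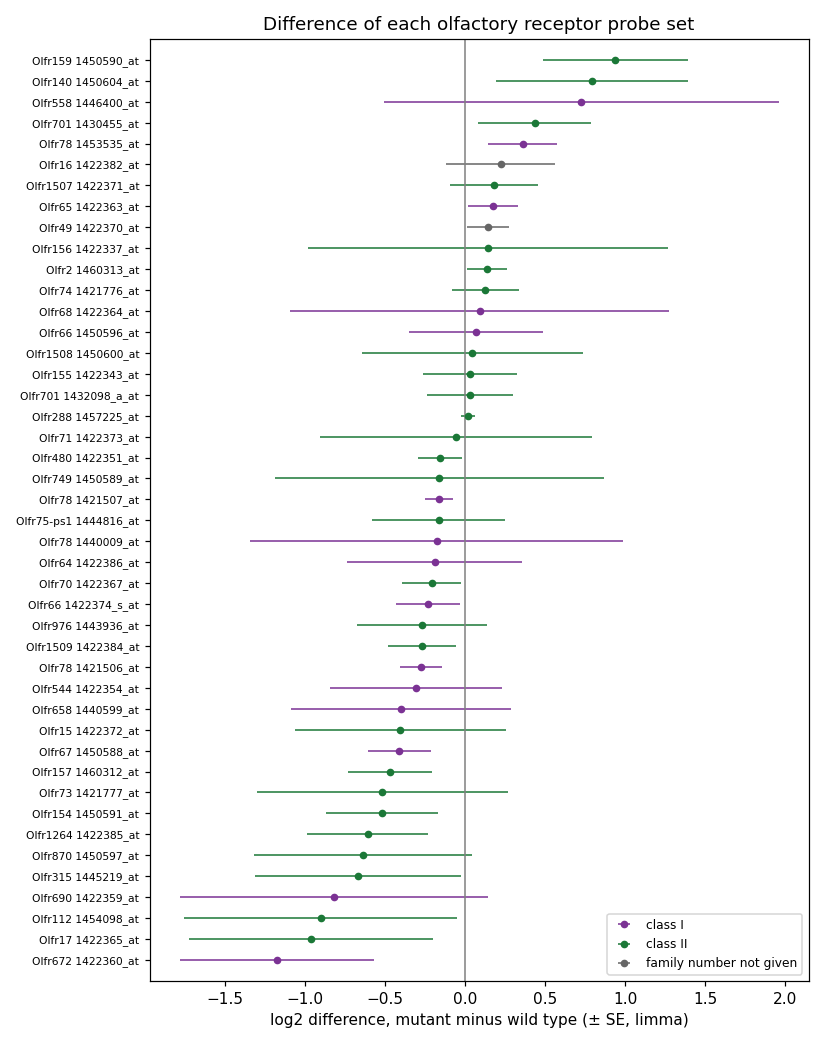
Log2 difference, mutant minus wild type (horizontal axis, points), with its limma standard error (bars) for each of the 44 receptor probe sets, sorted by difference and coloured by receptor class. Differences run from -1.18 for Olfr672 to 0.94 for Olfr159, and 26 of the 44 lie left of 0. In 11 probe sets 1 group lay wholly at the floor, and the size drawn depends on the floor.

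Runs of neighbouring receptor genes showed no common direction beyond these counts. The OR37 run, with 8 receptor genes in RefSeq and 6 members (Olfr155, Olfr156, Olfr157, Olfr159, Olfr70 and Olfr71), had 3 lower and 3 higher and a median difference of -0.01. The run of Olfr1507, Olfr1508, Olfr1509 and Olfr749 had 2 lower and 2 higher, with a median of -0.06. The run of Olfr2, Olfr17, Olfr480 and Olfr701 had 2 lower and 3 higher probe sets, with a median of 0.03. In the largest run, with 293 receptor genes and the members Olfr73, Olfr74, Olfr140, Olfr154 and Olfr1264, 3 were lower and 2 higher, and the median was -0.52. Within that run Olfr140 differed by 0.79 and Olfr1264 by -0.61, so neighbours pointed both ways.

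Counted over arrays rather than probe sets, the groups overlapped. Receptor probe sets above the floor numbered 25, 23 and 27 on mutant arrays 1, 2 and 3, against 32, 26 and 26 on wild-type arrays 1, 2 and 3. The group means were 25 ± 2 and 28 ± 3.5 in mutant and wild type (SD, n = 3 each, exact two-sided permutation p = 0.4). Those above the background level of 6.30 numbered 2, 3 and 4 in mutant, against 7, 2 and 6 in wild type. The median receptor level was 4.12, 3.95 and 3.99 in mutant, against 4.30, 3.93 and 3.98 in wild type (means 4.02 ± 0.09 and 4.07 ± 0.20, SD, n = 3 each, exact permutation p = 0.9). Wild-type array 1 was the highest array by both the count above the floor and the median, and the other 5 arrays lay close together.

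Genes of mature olfactory sensory neurons, the cells that carry receptors, are given beside these values. Their median level, over 15 of 20 listed genes with a probe set, was 9.10, 9.28 and 9.47 on mutant arrays 1, 2 and 3, against 10.08, 9.63 and 9.96 on wild-type arrays. The groups did not overlap (means 9.28 ± 0.18 and 9.89 ± 0.23, SD, n = 3 each, exact permutation p = 0.1, the smallest possible). Of the 15, limma called 0, 6 were lower at an unadjusted p under 0.05 (against 0.591% of the table), and the median difference was -0.71. By mean, 13 were lower in the mutant and 2, Adcy3 and Cngb1, higher. Gnal, the G protein subunit downstream of the receptors, differed by -0.92 (SE 0.16), and Cnga2, a subunit of the channel that cyclic AMP opens, by -1.41 (SE 0.42). Cngb1, another subunit of that channel, differed by 0.73 (SE 0.68). Omp, the classical marker of mature olfactory neurons, had 7.56, 7.41 and 8.06 in mutant, against 8.81, 7.92 and 7.40 in wild type. In whole epithelium, fewer neurons and less RNA per neuron cannot be told apart, and the part of either in the receptor values was not tested.

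**Figure D4:**
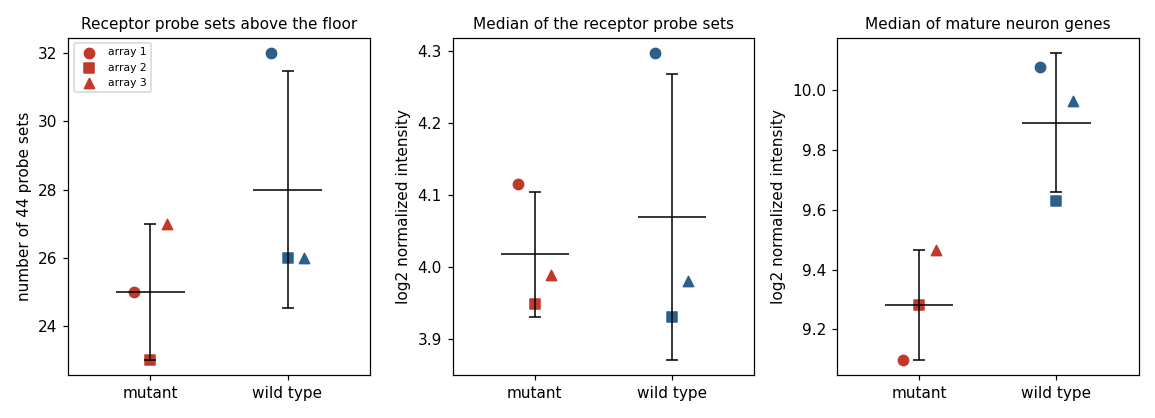
Per array (points, with the array number as the marker shape), the number of the 44 receptor probe sets above the floor (left), their median log2 normalized intensity (middle) and the median log2 normalized intensity of 15 mature neuron genes (right), mutant left of wild type in each panel, with group means and SD. Mutant and wild-type arrays overlap in the left and middle panels, while in the right panel the mutant arrays end at 9.47 and the wild-type arrays begin at 9.63.

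The genes that govern receptor choice and carry receptors to the cell surface were mostly well above background, and none passed the test. Of 23 listed, 20 had a probe set. Limma called 0 of them and none had an unadjusted p under 0.05, with 12 lower and 8 higher in the mutant and a median difference of -0.05. Lhx2, the LIM homeodomain factor of the receptor enhancers, averaged 9.62 in mutant and 9.0 in wild type, a difference of 0.62 (SE 0.41). Ldb1, which joins the enhancers that Lhx2 binds, differed by 0.33 (SE 0.69), and Ebf1, an Ebf factor of the same enhancers, by -0.0035 (SE 0.12). Emx2, a homeodomain factor needed for many receptors, differed by 0.08 (SE 0.22). Kdm1a, the histone demethylase that permits the first receptor to be expressed, differed by 0.07 (SE 0.24).

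Atf5, the transcription factor of the unfolded protein response that stabilises receptor choice, averaged 11.63 in mutant and 11.96 in wild type, with separate groups and a difference of -0.33 (SE 0.13, limma, unadjusted p = 0.051). Hspa1a, an inducible heat shock chaperone, lay below the background level of 6.30 on all 6 arrays, with 5.18, 5.93 and 5.89 in mutant, against 4.07, 5.03 and 4.82 in wild type. Its groups were also separate, and the difference was 1.03 (SE 0.56, limma, unadjusted p = 0.12). Lbr, the lamin B receptor whose loss accompanies the gathering of silent receptor genes in the nucleus, differed by -0.12 (SE 0.43), and Cbx5, a heterochromatin protein, by -0.04 (SE 0.22). Reep1, which carries receptors to the cell surface, differed by -0.11 (SE 0.19). Adcy3 differed by 0.36 (SE 0.47) in its brightest probe set.

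Genes of other families with chemosensory receptors lay at similar levels. Across 66 probe sets of 53 vomeronasal, trace amine, formyl peptide and Ms4a family genes, the median level was 4.19 and 40.4% of values lay at the floor, against 4.20 and 39.8% for the olfactory receptors given above. Above the background level were 7 of 66 (10.6%). Every Ms4a symbol was taken, so the 26 Ms4a probe sets were not limited to genes known as chemoreceptors. Median levels were 4.08 in 26 Vmn1r, 4.75 in 10 Vmn2r and 4.25 in the Ms4a probe sets, with 3, 2 and 2 above background. In direction, 31 of the 66 were lower in the mutant, 31 higher and 4 equal, with a median difference of 0. Limma called 0 of them. At an unadjusted p under 0.05 there was 1 of 66, against 1.07% of the table. It was the vomeronasal receptor Vmn2r10, which differed by -1.11 (limma, unadjusted p = 0.040, adjusted p = 1). Vmn2r10 had a mean of 4.47, below the background level, and lay at the floor on mutant array 2, so the size depends on the floor. Whether the olfactory receptors differed from these families in direction was not tested, since members of a family are not replicates.

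Single arrays varied widely. The range over the 6 arrays was above 1 log2 unit in 26 of 44 probe sets and above 2 units in 15. Both arrays numbered 3 stood above the other 4 in 9 receptor probe sets (20.5%), against 18.7% of the table. These were Olfr870, Olfr68, Olfr71, Olfr112, Olfr690, Olfr544, Olfr64, Olfr1264 and Olfr155. Both stood below the other 4 in 4 of them, the probe sets of Olfr78 (1440009_at), Olfr749, Olfr658 and Olfr558, against 14.2% of the table. Olfr690, a class I receptor, shows the pattern plainly, with 3.65, 3.65 and 5.60 in mutant, against 5.04, 3.65 and 6.66 in wild type.

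Arrays numbered 1 stood above the others in 3 probe sets, those of Olfr78 (1440009_at), Olfr749 and Olfr66 (1450596_at), against 12% of the table, and below them in that of Olfr156, against 6.11%. Arrays numbered 2 stood above the others in 3, those of Olfr558, Olfr701 (1432098_a_at) and Olfr74, against 10.3%, and below them in that of Olfr17, against 8.31%. Olfr74, the ethyl vanillin receptor mOR-EV, was above the floor on these arrays alone, at 4.31 on mutant array 2 and 3.94 on wild-type array 2. The mutant array was the lower one at every number in 6 receptor probe sets (13.6%), against 7.62% of the table, namely those of Olfr672, Olfr870, Olfr658, Olfr17, Olfr112 and Olfr1264. It was the higher one at every number in 2 (4.55%), against 5.68%, namely Olfr159 and Olfr701 (1430455_at). At the floor on all 3 mutant arrays were 6 probe sets and on all 3 wild-type arrays 5. For these 11 no fold or difference is given in the text, since the size depends on where the floor is set.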

How the data were processed

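Total RNA was extracted with Qiagen RNeasy mini and amplified with biotin by the NuGEN Ovation system, per the labels' protocols. The table that the authors deposited holds linear intensities, 1 for each probe set on each array; the sources used here do not give how probes were condensed, background corrected or arrays scaled. Of the deposited intensities, 5.39% were exactly 0. Because quartiles differed between arrays by up to 0.69 on the log2 scale, over a bar of 0.1, arrays were quantile normalized, floored at the 20th percentile and put on the log2 scale. The size of a difference near the floor depends on the floor. The number of arrays limits the precision.

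Groups and replicate numbers came from the sample titles. Limma 3.58.1 in R 4.3.3 (lmFit, eBayes with an intensity trend, two-sided) was fitted to all 45037 probe sets. Benjamini-Hochberg adjustment ran over all of them, with a threshold of 0.05. The fit was tested on simulated data with large changes in bright probe sets of low spread. Such a test does not measure its power for dim receptors. Exact two-sided permutation tests over arrays accompany single values. For gene lists, the brightest probe set of each gene was used. The replicate numbers were taken to pair the arrays because all 3 correlations of deviations exceeded 0.1.

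The genes described were 11 receptors listed by name, the 12 brightest probe sets, separated groups and large ranges above background; others were singled out after their values were seen (Olfr159, Olfr67, Olfr156, Olfr690, Olfr74 and those in counts). The members and lists were chosen with earlier results of these data known. Names came from the platform annotation, and all 44 matched RefSeq by gene number. The files name no genome build, so coordinates are those of the RefSeq sequences alone. Alternatives changed the normalization, floor, dim filter, probe sets, variance model, replicate block, arrays and background level.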

Additional observations from a re-analysis of the deposited data

How the results depend on the processing

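Limma called 0 receptor probe sets under every alternative run, so the choices below bear on smaller counts and on directions. The number at an unadjusted p under 0.05, 0 as reported, was 1 without normalization (Olfr159), 1 with a floor at the 10th percentile (Olfr157), 2 with an offset of 32 in place of the floor, 1 with array weights (Olfr67), 2 with the replicate block and 2 without both arrays numbered 3. The table's share at that p was 1.07% as reported, 0.92% without normalization, 1.06% with the lower floor and 0.77% with the offset. With array weights it was 1.95%, and with the replicate block 1.72%. Without mutant array 1 the table's share was 1.89%, with 0 receptors. The receptor count ran from 0 to 4 when 1 array was left out, with the 4 reached without wild-type array 2. These were Olfr1509, Olfr157 and the Olfr78 probe sets 1421506_at and 1421507_at. Every mutant array of Olfr157 and of both these Olfr78 probe sets lay at the floor. For this count, and for that without both arrays numbered 3, no share of the table is given, so neither is a result about the receptors. The median difference of all 44 ran from -0.22 to -0.08 when 1 array was left out. The number above background, 2 as reported, was 1 with 1 probe set per gene, 7 with the level of the lowest 40% and 0 with the highest silent gene, which leaves no median, and ran from 1 to 2 when 1 array was left out. The median difference of those above background was -0.67 over the 2 probe sets. It was -0.17 with 1 probe set per gene and -0.17 with the level of the lowest 40%, and ran from -0.95 to 0.12 when 1 array was left out; it was 0.12 without mutant array 1, where Olfr75-ps1 alone remained. Leaving Csn3 and Prm1 out of the silent genes, an alternative chosen after seeing the data, left 2 above background.

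Of 304 recomputed differences of the 20 named probe sets, 277 kept their sign, 26 changed it, in 11 probe sets (18 of them when 1 array was left out), and 1 became 0 (Olfr2 without mutant array 2). Olfr1508 gave -0.0098 with array medians set equal, -0.17 with array weights and -0.64 without both arrays numbered 3. Olfr544 gave 0.093 with array weights and 0.046 without both arrays numbered 3, Olfr78 (1440009_at) 0.26 with a floor at the 10th percentile, and with an offset of 32 Olfr68 gave -0.11 and Olfr71 0.040. Leaving out 1 array gave ranges of -0.62 to 0.12 for Olfr75-ps1, -1.20 to 0.66 for Olfr78 (1440009_at), -0.55 to 1.27 for Olfr68, -1.01 to 0.64 for Olfr749, -0.80 to 0.40 for Olfr71 and -0.75 to 0.088 for Olfr658. The ranges were -0.35 to 1.57 for Olfr558, -0.61 to 0.44 for Olfr1508, -1.17 to 0.28 for Olfr73, -0.76 to 0.21 for Olfr544 and -0.12 to 0.33 for Olfr1507. The differences of Olfr672 (-1.55 to -0.68), Olfr112 (-1.53 to -0.26), Olfr17 (-1.61 to -0.39) and Olfr870 (-1.08 to -0.25) stayed negative but moved by over 1.5 times. With a floor at the 10th percentile Olfr73 gave -0.080, against -0.52 as reported. The cause of these changes was not tested. Signal over background limits most receptor values: 37 of 44 probe sets lay below the level of the lowest 40%.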
